A study of Mus musculus with 9 samples.

Results

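Peroxisomes are organelles that oxidise fatty acids which mitochondria handle poorly, make the first steps of ether lipids and hold oxidases whose hydrogen peroxide is broken down by catalase. Proteins called peroxins, the Pex genes, build the organelle and import its enzymes from the cytosol. The proximal tubule of the kidney, with the liver, is among the tissues richest in peroxisomes. Here 36 genes of peroxisome enzymes and biogenesis factors were followed, out of 24421 genes in the table of estimated read counts. They were taken as a list of gene symbols and grouped by role into 12 peroxins, 2 ABC transporters, 8 beta-oxidation enzymes, 2 alpha-oxidation enzymes, 5 oxidases including catalase, 2 ether lipid enzymes and 5 auxiliary acyl-CoA enzymes.

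The cells came from mice that carried an inducible Cre driven by Slc34a1, which is active in proximal tubules, with a tdTomato reporter at Rosa26, on a background labelled C57BL/6. All mice were injected with tamoxifen at 8 weeks of age, and live tdTomato-positive cells were sorted from the kidney cortex, per the methods. The 3 groups of 3 mice were *db/m* (non-diabetic, with one normal leptin receptor allele), *db/db* given vehicle (without a functional leptin receptor, obese and diabetic) and *db/db* given dapagliflozin, an inhibitor of the glucose transporter SGLT2, at 1.5 mg/kg/day in drinking water for 8 weeks (*db/db*-dapa). The labels name only the kidney as source, so the cell type was checked with markers. The summed level of 20 proximal tubule markers was 36718 to 54352 CPM (counts scaled to a common library size) in the 9 mice, against at most 1799 for 5 thick ascending limb, 1462 for 5 erythroid, 891 for 4 distal convoluted tubule and 789 for 6 collecting duct principal markers. The lists of podocyte, intercalated, endothelial, macrophage, lymphocyte and fibroblast markers summed to at most 255 CPM each. Library totals ran from 2733314 (*db/db* replicate 1) to 9033062 counts.

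Of the 36 genes, 35 passed the filter on low counts. The exception was Abcd2, a transporter of very long-chain acyl-CoA, with 6 counts over all 9 mice. 3 genes changed in *db/db* mice versus the *db/m* controls. Agps, which makes the ether bond of plasmalogens, and Amacr, the racemase that prepares branched-chain acyl-CoA and bile acid intermediates for beta-oxidation, fell, whereas Hacl1, the lyase that cleaves 2-hydroxyacyl-CoA in alpha-oxidation, rose. With all 9 mice fitted together, none of the 12 peroxins passed edgeR's quasi-likelihood test in any comparison. Over all genes, 1.67% passed at an adjusted p under 0.1 in *db/db* versus *db/m* mice. The share was 0% in *db/db*-dapa versus *db/db* mice and 1.31% in *db/db*-dapa versus *db/m* mice. The absence of peroxins thus lay near the share over all genes. An unadjusted p under 0.05 was found for 1 peroxin that was lower in *db/db* versus *db/m* mice (6.21% of all genes), 1 that was higher in *db/db*-dapa versus *db/db* mice (1.91%) and 2 that were higher in *db/db*-dapa versus *db/m* mice (9.77%). No member passed in *db/db*-dapa versus *db/db* mice.

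The upstream sequences of 2 members are shown because Agps changed most among the members that fell and Ehhadh had the highest fold change in *db/db*-dapa versus *db/db* mice. Each is the 250 bases before the RefSeq start (GRCm38.p6), read 5′ to 3′ on the strand of the gene. Neither window overlaps the span of its own gene in GENCODE. Capitals mark the GC box GGGCGG and the CCAAT box CCAAT, searched on both strands.
Agps, chr2:75831927-75832176, plus strand: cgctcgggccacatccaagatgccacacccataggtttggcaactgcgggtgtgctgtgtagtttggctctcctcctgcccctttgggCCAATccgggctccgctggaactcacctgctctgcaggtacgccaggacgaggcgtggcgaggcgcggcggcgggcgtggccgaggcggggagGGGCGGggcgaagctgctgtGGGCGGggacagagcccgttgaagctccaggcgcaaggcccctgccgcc
Ehhadh, chr16:21787835-21788084, minus strand: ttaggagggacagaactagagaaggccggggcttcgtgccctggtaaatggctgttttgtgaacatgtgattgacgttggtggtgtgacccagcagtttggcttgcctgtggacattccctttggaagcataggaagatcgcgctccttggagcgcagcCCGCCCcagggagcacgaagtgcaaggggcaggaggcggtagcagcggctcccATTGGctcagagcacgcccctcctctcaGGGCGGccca

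Each window held 2 GC boxes and 1 CCAAT box. Their GC content was 70% for Agps and 60.4% for Ehhadh, against a median of 52.4% over all 32851 promoters in the table. Promoters were found for 31 of the 36 members, 38 entries in all. The median GC content of these member entries was 58.2%. A GC box was present in 50% of the member entries and 32.7% of all promoters, and a CCAAT box in 47.4% and 33.9%. The matches were 19 entries of 18 members for the GC box and 18 entries of 17 members for the CCAAT box. The part of GC content in these shares was not tested. The half-site AGGTCA, which nuclear receptors read, was present in 13.2% of member entries and 14.02% of all promoters, in Scp2, Cat, Dao, Ddo and Acot4. Its tandem repeat with 1 base between, AGGTCANAGGTCA, the form read by PPAR and RXR, was in 0 member entries and in 11 of all promoters (0.033%). At so low a share, 0 among 38 entries carries no information about the members. These are matches of letters within 250 bases only.

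Levels of different genes were compared per length, as CPM per kilobase of the longest annotated transcript, averaged over the 9 mice. The medians of beta-oxidation enzymes and oxidases stood above that of the peroxins, while single enzymes such as Acot4, Acox2 and Ddo lay within the peroxin range. The 12 peroxins ran from 5.88 (Pex10) to 40.2 CPM per kilobase (Pex19), with a median of 12.7. The 8 beta-oxidation enzymes ran from 14.8 (Acox2) to 412 (Scp2), with a median of 98.4, and the 5 oxidases from 17.9 (Ddo) to 611 (Hao2), with a median of 251. The highest levels after Hao2 were those of Phyh, 588 ± 64.7 CPM per kilobase (SD over 9 mice), and Cat, 511 ± 88.7, whose ranges of 1 SD overlapped. Abcd3, which carries acyl-CoA across the membrane, was at 104, the other alpha-oxidation enzyme Hacl1 at 49.7, and Agps and Gnpat at 22.5 and 26.3. Among the auxiliary enzymes Pecr stood at 428, and Acot4, Acot8, Mlycd and Eci2 between 11.8 and 44.8. The scale depends on the annotated length. With the median transcript length Agps was at 283 in place of 22.5, and Scp2 ranked first.

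**Figure D1:**
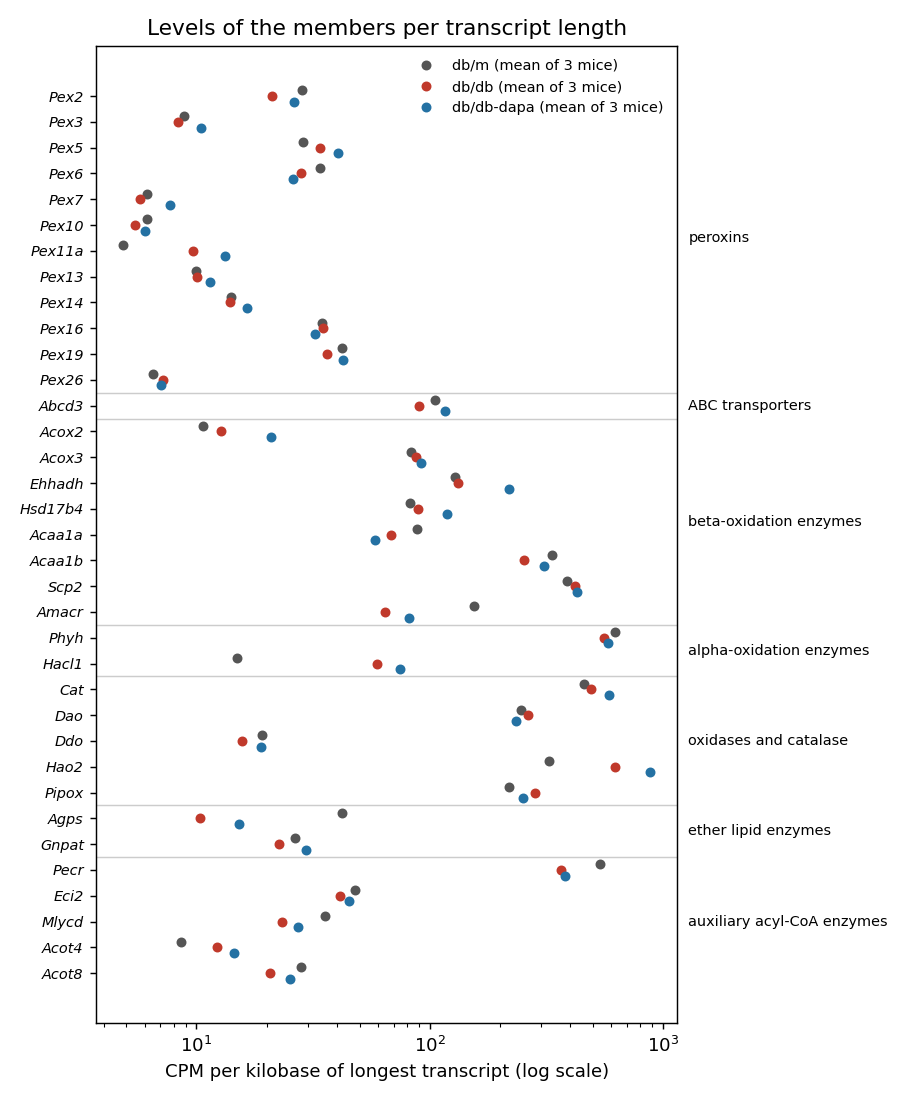
Level of each of the 35 members tested, as CPM per kilobase of the longest transcript on a log scale, grouped by class, with 1 point for the mean of the 3 mice of each group. The peroxins lie below the median of 98.4 of the beta-oxidation enzymes, and the points of the 3 groups separate most for Agps, Amacr, Hacl1, Hao2 and Pex11a.

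The first question was how the diabetic state altered these genes. In *db/db* versus *db/m* mice, 3 of 35 members were called with an adjusted p below 0.1 and a log2 fold change beyond 1 in size (edgeR's quasi-likelihood test), against 1.24% of all 15583 genes tested. The same 3 had an adjusted p under 0.1 at any fold, against 1.67% of all genes. Of the 35, 16 were higher and 19 lower in *db/db* mice, with a median log2 fold change of -0.08, beside 0.02 over all genes. The groups did not overlap for 3 members that were higher and 6 that were lower, beside 8.28% and 8.13% of all genes.

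Agps, alkylglycerone phosphate synthase, lies on chromosome 2 from 75832177 to 75931350 (GRCm38), and its upstream sequence is shown above. It was at 315, 325 and 288 CPM in the *db/m* mice, 38.4, 60.2 and 129 in the *db/db* mice and 96.7, 113 and 125 in the *db/db*-dapa mice. Every *db/m* mouse was above all 6 diabetic mice, and *db/db* replicate 3 stood above the other two *db/db* mice. The log2 fold change of *db/db* against *db/m* was -2.01 (standard error 0.35, adjusted p = 0.0239, edgeR's quasi-likelihood test, lower in 3 of 3 mice). Without *db/db* replicate 2 the adjusted p was 0.104 at a log2 fold change of -1.86 (edgeR's quasi-likelihood test). There 0.809% of all genes passed, in place of 1.67%. The adjusted p of Agps was 0.000429 to 0.0995 when any of the other mice was left out. Gnpat, the acyltransferase that acts just before Agps in the same pathway, was at 74.0, 91.1 and 72.8 CPM in *db/m* and 52.7, 54.6 and 95.4 CPM in *db/db* mice. These groups overlapped (log2 fold change -0.22, standard error 0.24).

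Amacr is located on chromosome 15, between 10981756 and 10996626. It was at 475, 367 and 359 CPM in *db/m*, 129, 193 and 175 in *db/db* and 202, 222 and 205 in *db/db*-dapa mice. The 3 groups did not overlap. Its log2 fold change in *db/db* against *db/m* mice was -1.27 (standard error 0.20, adjusted p = 0.0133, edgeR's quasi-likelihood test, lower in 3 of 3 mice), and the call held with any single mouse left out (adjusted p 0.0126 to 0.0773).

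Hacl1 is located on chromosome 14, between 31598730 and 31641286. It was at 38.0, 48.5 and 43.5 CPM in *db/m*, 93.1, 173 and 254 in *db/db* and 113, 239.6 and 298 in *db/db*-dapa mice. Both diabetic groups spread widely, but their lowest mouse was above the highest *db/m* mouse. The log2 fold change of *db/db* against *db/m* was 2.01 (standard error 0.39, adjusted p = 0.0400, edgeR's quasi-likelihood test, higher in 3 of 3 mice). Leaving out *db/db* replicate 2 raised the adjusted p to 0.104 (edgeR's quasi-likelihood test). Leaving out *db/m* replicate 1, 2 or 3 raised it to 0.206, 0.113 and 0.145. The log2 fold changes were then 1.92 to 2.09. In these fits 0.552% to 0.986% of all genes passed, in place of 1.67%. Hacl1 shares 108 exonic bases with Btd, the biotinidase gene on the opposite strand, and the use of strand in counting is not given in the sources used here. Btd was at 74.6 to 98.1 CPM in *db/m* and 76.8 to 107 CPM in *db/db* mice (log2 fold change 0.14, standard error 0.18). Phyh, which hydroxylates phytanoyl-CoA ahead of Hacl1, was at 828 to 976 CPM in *db/m* and 679 to 967 in *db/db* mice, and these groups overlapped.

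**Figure D2:**
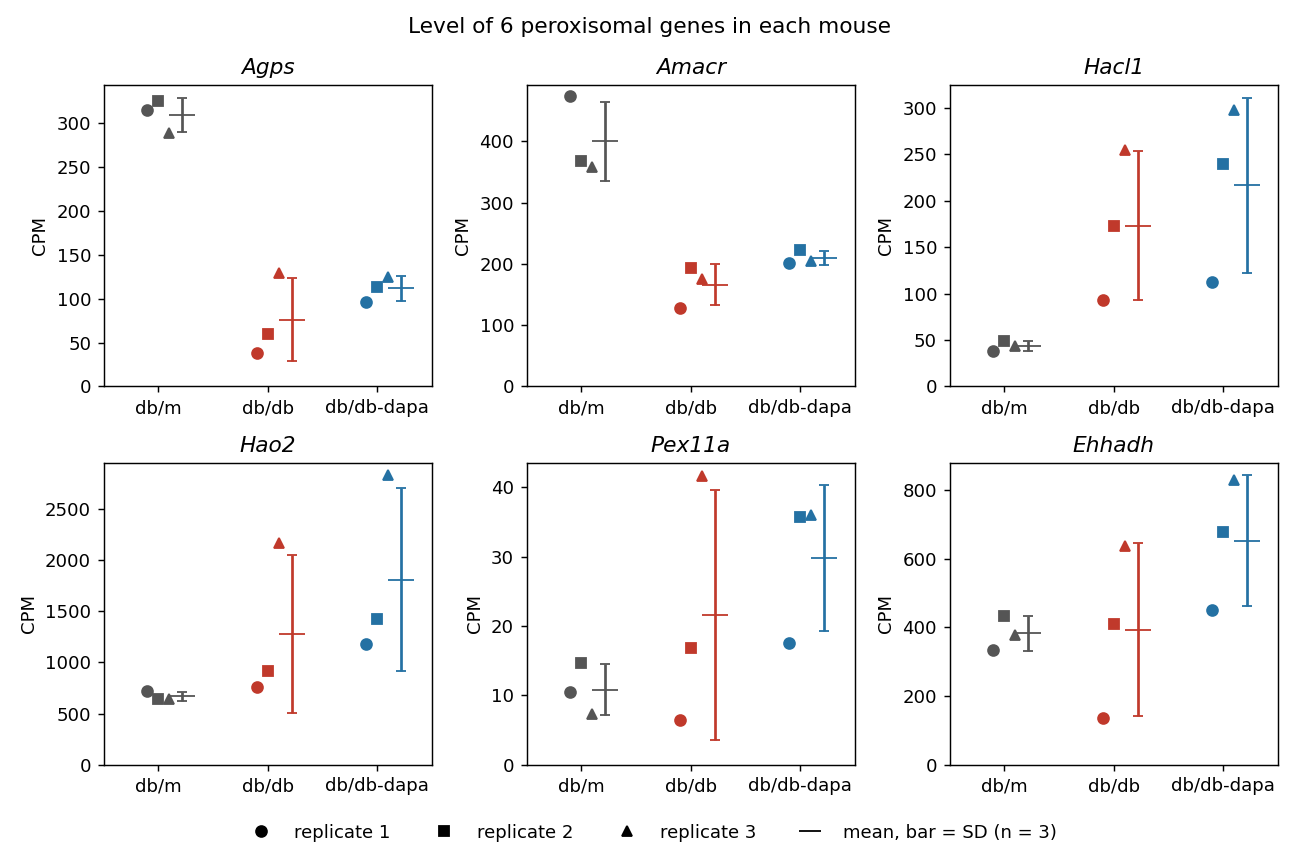
CPM of Agps, Amacr, Hacl1, Hao2, Pex11a and Ehhadh in each of the 9 mice, by group, with symbols for the replicate number and the mean with its SD (n = 3) beside the points. All *db/m* mice lie above the diabetic mice for Agps and Amacr and below them for Hacl1, and *db/db* replicate 1 is the lowest of its group in all 6 panels.

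The peroxins moved little between *db/db* and *db/m* mice. Of 12, 5 were higher and 7 lower, with a median log2 fold change of -0.05 and a range of -0.42 to 1.04. Pex2, part of the ubiquitin ligase that recycles the import receptor, was at 54.8, 66.3 and 52.6 CPM in *db/m* and 41.8, 42.6 and 45.0 CPM in *db/db* mice, and these groups did not overlap (log2 fold change -0.42, standard error 0.15, adjusted p = 0.252, edgeR's quasi-likelihood test). The receptors Pex5, for the C-terminal import signal, and Pex7, for the N-terminal one, had fitted values of 0.25 (standard error 0.19) and, for Pex7, -0.09 (standard error 0.17). The docking proteins Pex13 and Pex14 were at 0.03 and -0.02. For Pex3, Pex16 and Pex19, which insert membrane proteins, the values were -0.08, 0.02 and -0.21. Pex6, an ATPase that extracts the receptor, its anchor Pex26 and the ligase subunit Pex10 were at -0.28, 0.15 and -0.19. Averaged over the 9 mice, these 10 peroxins and Pex2 lay between 16.4 ± 2.07 (Pex10) and 114 ± 13.8 CPM (Pex19, SD).

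Pex11a, which acts in the division and proliferation of peroxisomes, had the highest value among peroxins. Its level was 10.6, 14.7 and 7.33 CPM in *db/m*, 6.46, 16.8 and 41.6 in *db/db* and 17.6, 35.7 and 36.0 in *db/db*-dapa mice. The *db/db* mice thus ranged from below to above all *db/m* mice. The fitted log2 fold change of Pex11a was 1.04 (standard error 0.53, adjusted p = 0.417, edgeR's quasi-likelihood test) with all mice and 0.14 without *db/db* replicate 3.

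Among the 8 beta-oxidation enzymes, 5 were higher and 3 lower in *db/db* mice, with a median log2 fold change of 0.06. Their score, the mean log2(CPM + 1) over the class in a mouse, went the other way, with 8.22 ± 0.05 in *db/m* and 7.93 ± 0.55 in *db/db* mice (SD of 3 mice per group). This rested on *db/db* replicate 1, at 7.30 against 8.14 and 8.33 in the other *db/db* mice. Without that mouse the difference in score was 0.02 in place of -0.29. In that mouse Acox2, an oxidase for bile acid intermediates, was at 6.46 CPM against 33.0 and 71.6 in the other *db/db* mice, and Ehhadh, the L-bifunctional enzyme, was at 135 against 409 and 637. Acox3, at 347 ± 82.8 CPM over the 9 mice, and Hsd17b4, the D-bifunctional enzyme, at 259 ± 62.8, differed by 0.07 (standard error 0.27) and 0.12 (standard error 0.23) on the log2 scale. The thiolases Acaa1a and Acaa1b, near-identical copies between which reads may have been split, were at -0.37 (standard error 0.20) and -0.40 (standard error 0.27), and Scp2 at 0.12 (standard error 0.18).

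Of the 5 oxidases, 4 were higher and 1 lower in *db/db* mice, with a median log2 fold change of 0.11, and none passed the test. Hao2, which oxidises long-chain 2-hydroxy acids, was at 716, 641 and 647 CPM in *db/m* and 756, 915 and 2165 in *db/db* mice. The groups did not overlap, though *db/db* replicate 3 stood far above the others (log2 fold change 0.94, standard error 0.40, adjusted p = 0.332, edgeR's quasi-likelihood test, and 0.32 on the log2 scale without that mouse). Pipox, the pipecolic acid oxidase, was at 353 to 524 CPM in *db/m* and 542 to 583 in *db/db* mice, and Ddo, the D-aspartate oxidase, at 55.1 to 61.9 and 44.0 to 54.7. Neither overlapped between groups (log2 fold changes 0.36 and -0.29, standard errors 0.18 and 0.15). Catalase, Cat, was at 1139.9 to 1260.5 CPM in *db/m* and 942 to 1515 in *db/db* mice, and Dao, the D-amino acid oxidase, at 494 to 524 and 506 to 562.

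The auxiliary enzymes were mostly lower in *db/db* mice, 4 of 5, without passing the test. Mlycd, malonyl-CoA decarboxylase, was at 102, 85.7 and 124 CPM in *db/m* and 47.6, 82.6 and 74.6 in *db/db* mice (log2 fold change -0.60, standard error 0.22, adjusted p = 0.263, edgeR's quasi-likelihood test). Pecr, a trans-2-enoyl-CoA reductase, was at 706, 602 and 609 and at 347, 534 and 414 CPM (log2 fold change -0.57, standard error 0.19, adjusted p = 0.214, edgeR's quasi-likelihood test), and passed in DESeq2 alone (adjusted p = 0.0485, 0.0485 to 0.472 over the alternatives). Neither gene overlapped between these groups. Acot4, a thioesterase in a cluster of similar genes, was at 50.6 to 57.8 and 44.2 to 103 CPM (log2 fold change 0.53, standard error 0.28). The isomerase Eci2 and the thioesterase Acot8 were at -0.20 and -0.43 on the log2 scale, and Abcd3 at -0.23, with levels over the 9 mice of 129 ± 22.9, 31.5 ± 6.02 and 363 ± 76.2 CPM.

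**Figure D3:**
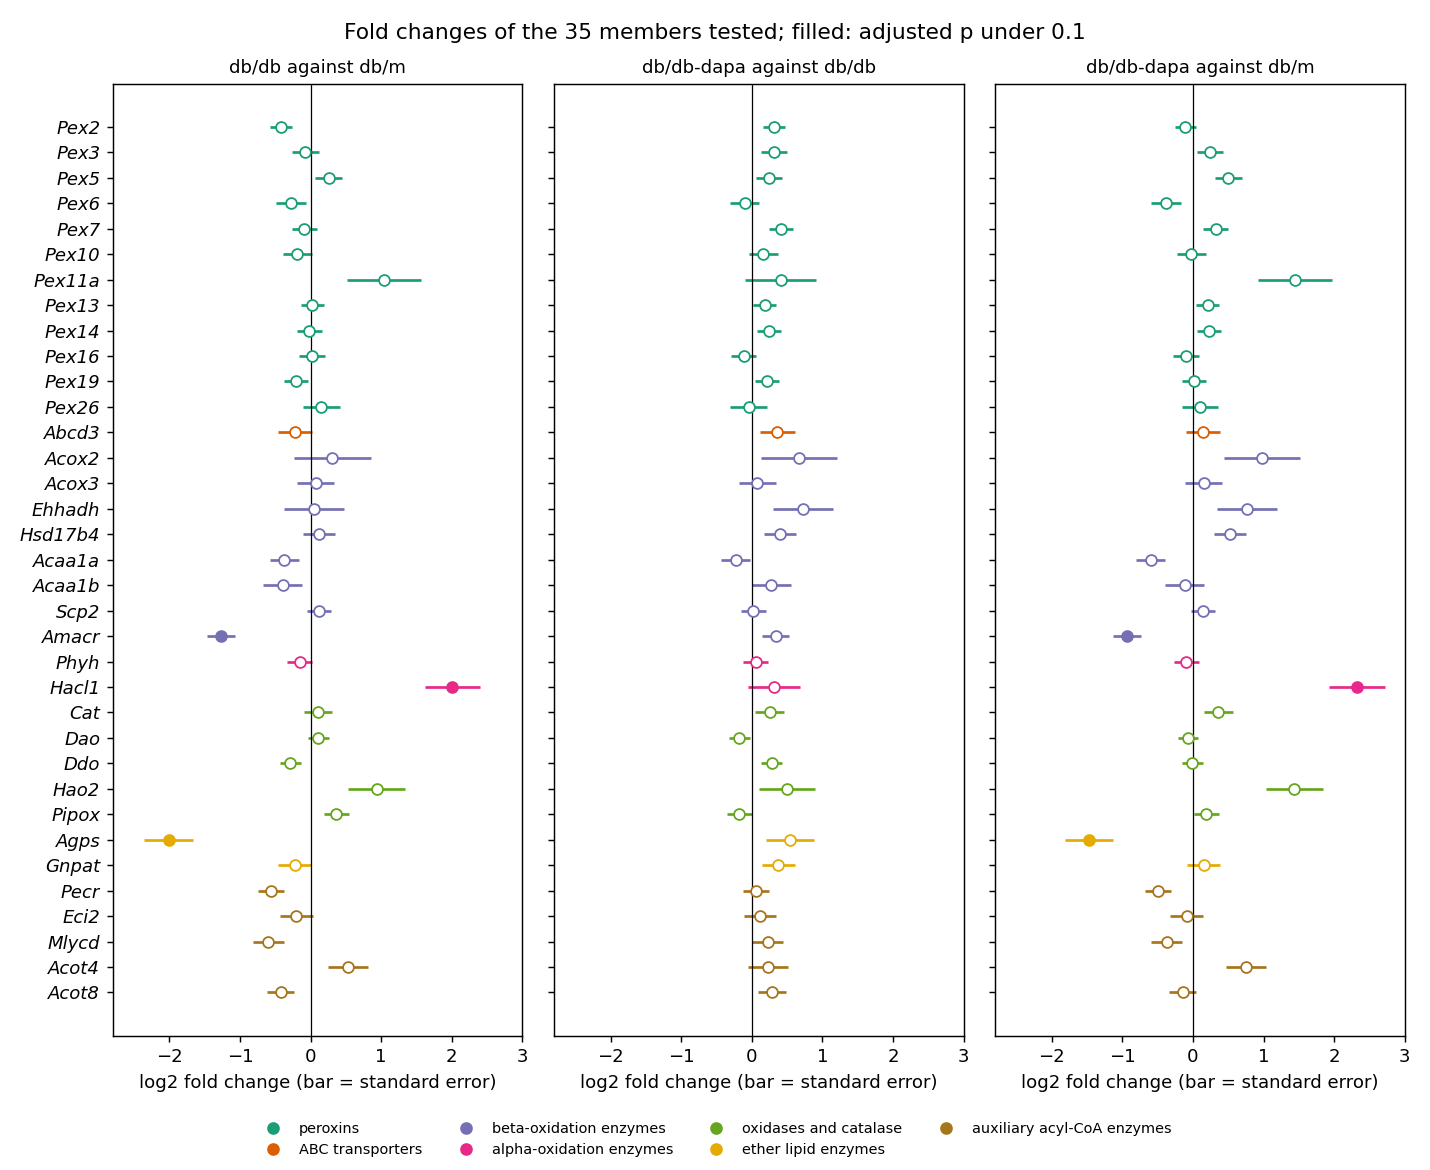
Log2 fold change of the 35 members tested, 1 row per gene and 1 panel per comparison, with bars of 1 standard error and colours for the class. Filled points, with an adjusted p under 0.1, are Amacr, Hacl1 and Agps in both comparisons with *db/m* mice, and there are none in *db/db*-dapa versus *db/db* mice.

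Markers of the S3 segment of the proximal tubule, the straight part where peroxisomes are abundant, were mostly lower in *db/db* mice. Their log2 fold changes against *db/m* mice were uneven, from -7.66 to 0.05 with a median of -1.40. Of 14 S3 markers, 11 were lower in *db/db* than in *db/m* mice and 4 were called lower, among them Kap (log2 fold change -3.73, standard error 0.36, adjusted p = 0.00117, edgeR's quasi-likelihood test). Their summed level was 29925 to 41949.8 CPM in *db/m*, 2580 to 6827 in *db/db* and, with dapagliflozin, 6567 to 10755, in *db/m* mice mostly from Kap, and 0 of the 14 were at 0 in all mice. The 10 markers of the S1 and S2 segments summed to 11002 to 12035, 11320.4 to 13911 and 13364 to 14019.9 CPM. The part of a change in segments in the values of Agps, Amacr and Hacl1 was not tested. In sorted bulk cells, fewer cells of a type and lower expression of its markers in each cell cannot be told apart.

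The second question was whether dapagliflozin altered these genes in diabetic mice. In *db/db*-dapa versus *db/db* mice, 0 of 35 members were called and 0 had an adjusted p under 0.1 (edgeR's quasi-likelihood test, lowest adjusted p = 0.854), beside 0% of all genes by either rule. DESeq2 and limma on log2(CPM + 1) also gave 0 members. The study, with edgeR and the same thresholds, reported a small number of differentially expressed genes in this comparison. The reason for the difference from the 0% found here was not tested. Limma with weighted mice gave 4 with an adjusted p under 0.1, Agps, Ehhadh, Gnpat and Hsd17b4, of which Agps and Ehhadh also passed the fold, where it gave 899 of all genes. In direction, 29 of 35 members were higher and 6 lower, with a median log2 fold change of 0.25, beside -0.01 over all genes. Leaving out *db/db* replicate 1 gave 23 higher, 12 lower and a median of 0.11, and leaving out *db/db* replicate 3 a median of 0.36. Proximal tubule markers shifted by a like amount, with 15 of 20 higher and a median of 0.21, while the markers of several other cell types were lower in fitted value. All 8 macrophage, 6 endothelial, 6 lymphocyte, 5 erythroid, 6 collecting duct principal and 5 intercalated markers had log2 fold changes below 0, with medians of -0.78, -0.43, -1.85, -1.95, -0.76 and -0.46. All 5 podocyte markers were above 0, with a median of 0.78. The summed level of intercalated markers did not overlap, at 78.6 to 112 CPM in *db/db* and 44.8 to 72.5 in *db/db*-dapa mice. The sums of the other lists named here overlapped, for example 49.0 to 122 and 32.9 to 72.4 CPM for macrophage and 97.9 to 1462 and 29.6 to 297 CPM for erythroid markers, and 0 of these genes were at 0 in all mice. The part of other cells in the shift of the members was not tested. The groups did not overlap for 4 members that were higher, beside 4.90% of all genes, and for 2 that were lower, beside 5.29%.

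Those 4 were Pex7, Pex2, Amacr and Ddo. Pex7 was at 38.1, 50.4 and 51.4 CPM in *db/db* and 54.5, 62.6 and 69.8 in *db/db*-dapa mice, and was the 1 member with an unadjusted p under 0.05, found for 1.91% of all genes that were higher and 3.27% that were lower (log2 fold change 0.41, standard error 0.17). Pex2 was at 41.8 to 45.0 and 52.8 to 55.2 CPM, and Ddo at 44.0 to 54.7 and 57.9 to 61.4. Dao and Pipox were lower without overlap, at 506 to 562 against 470.3 to 498 CPM and at 542 to 583 against 455 to 531 CPM (log2 fold changes -0.18 and -0.17, standard errors 0.15 and 0.18).

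The highest fold changes were found in beta-oxidation. Ehhadh, whose upstream sequence is given above, was at 135, 409 and 637 CPM in *db/db* and 451, 678 and 829 in *db/db*-dapa mice, with 334, 434 and 379 in *db/m* mice. The *db/db* and *db/db*-dapa mice overlapped (log2 fold change 0.73, standard error 0.43, adjusted p = 0.854, edgeR's quasi-likelihood test), and without *db/db* replicate 1 the value was 0.32. Acox2 was at 6.46, 33.0 and 71.6 CPM in *db/db* and 72.5, 49.4 and 60.5 in *db/db*-dapa mice (log2 fold change 0.67, standard error 0.53, and 0.21 without *db/db* replicate 1). Agps and Hao2 followed at 0.54 (standard error 0.34) and 0.50 (standard error 0.40). Without *db/db* replicate 3 Agps had a log2 fold change of 1.18 and an adjusted p of 0.0670, where 419 of all genes passed at any fold, and over the other mice left out its adjusted p was higher, up to 1 (edgeR's quasi-likelihood test). The value was 0.32 for Hacl1 (standard error 0.37) and 0.34 for Amacr (standard error 0.19).

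The lowest value was that of Acaa1a, at -0.23 (standard error 0.20), with 255, 301 and 191 CPM in *db/db* and 217, 219.5 and 202 in *db/db*-dapa mice. Dao and Pipox, given above, came next, and Pex16 was at -0.12 (standard error 0.18). The adjusted p was 0.854 to 0.909 for these 4 members (edgeR's quasi-likelihood test). By class, the median log2 fold change was 0.23 for peroxins (9 higher, 3 lower), 0.31 for beta-oxidation enzymes (7 higher, 1 lower), 0.25 for oxidases (3 higher, 2 lower) and 0.23 for auxiliary enzymes (5 higher).

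**Figure D4:**
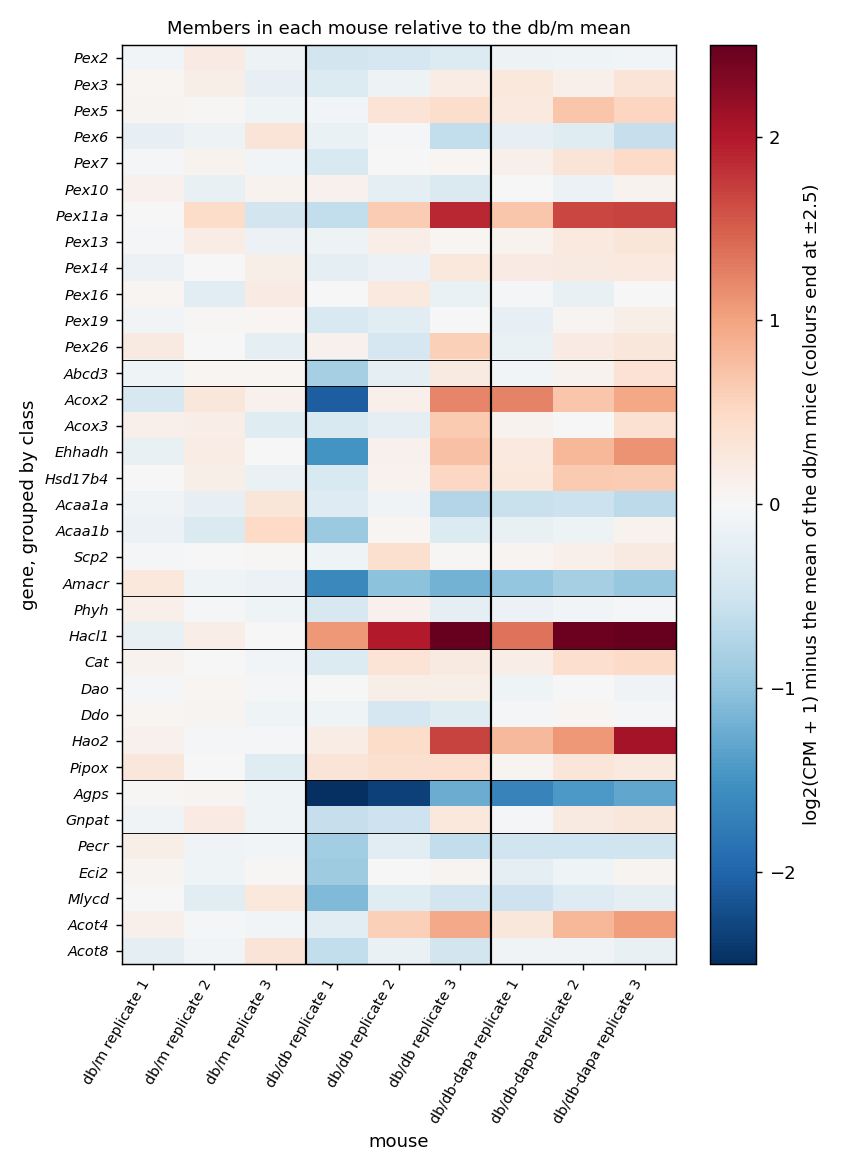
Log2(CPM + 1) of each of the 35 members in each mouse minus the mean of the 3 *db/m* mice, red where higher and blue where lower, with genes grouped by class and colours ending at 2.5. *db/db* replicate 1 is blue for most enzymes, and the rows of Hacl1 and Agps stand out in all 6 diabetic mice.

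Within each diabetic group the order of the mice was alike for many members. *db/db* replicate 1, the smallest library, was the lowest of its group for 29 of 35 members, and *db/db* replicate 3 was the highest for 21. With dapagliflozin, replicate 1 was the lowest for 26 and replicate 3 the highest for 24. In *db/m* mice the lowest mouse was replicate 3, for 17 members, and the highest replicate 2, for 15. What set these mice apart was not tested.

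Peroxins were compared with the matrix enzymes through their scores. The peroxin score was 5.48 ± 0.04 in *db/m*, 5.46 ± 0.19 with vehicle and 5.68 ± 0.11 with dapagliflozin (SD of 3 mice per group). The beta-oxidation score was 8.22 ± 0.05, 7.93 ± 0.55 and 8.33 ± 0.10, and that of the oxidases 8.65 ± 0.10, 8.86 ± 0.22 and 9.02 ± 0.18. The beta-oxidation score exceeded the peroxin score by 2.60 to 2.82 log2 units in 8 mice and by 2.04 in *db/db* replicate 1. The oxidase score exceeded it by 3.11 to 3.27 in *db/m* mice, 3.38 to 3.44 in *db/db* mice and 3.28 to 3.42 in *db/db*-dapa mice. All diabetic mice were thus above the *db/m* mice in the last difference. The margin was narrow, with *db/db*-dapa replicate 1 at 3.283 and *db/m* replicate 1 at 3.265. Hao2 was the oxidase of the highest fold change. In *db/db*-dapa against *db/m* mice its log2 fold change was 1.44, beside 0.36 for Cat, 0.19 for Pipox, -0.0056 for Ddo and -0.07 for Dao. The peroxin median was 0.16. The difference without Hao2 was not computed, and how often other genes separate in this way was not tested.

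**Figure D5:**
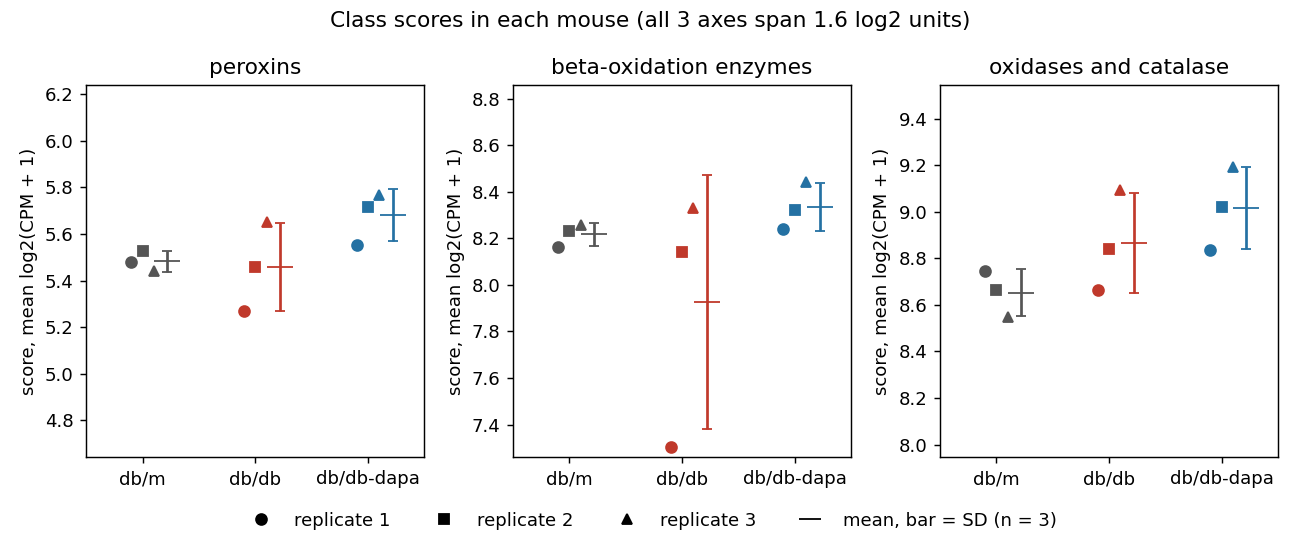
Score of peroxins, beta-oxidation enzymes and oxidases with catalase, the mean log2(CPM + 1) over the class, in each mouse by group, with the mean and SD (n = 3) beside the points and axes of equal span. The beta-oxidation score of *db/db* replicate 1, 7.30, lies below all other mice, and the oxidase score is highest in *db/db*-dapa replicate 3.

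The third comparison set treated diabetic mice against the non-diabetic controls, and shares its mice with the other comparisons. Among *db/db*-dapa versus *db/m* mice, 2 members, Hacl1 and Agps, were called with the fold limit, against 1.05% of all genes, and 3 had an adjusted p under 0.1, against 1.31%. The log2 fold change was 2.32 for Hacl1 (standard error 0.39, adjusted p = 0.0333), -1.47 for Agps (standard error 0.34, adjusted p = 0.0964) and -0.93 for Amacr (standard error 0.19, adjusted p = 0.0672, edgeR's quasi-likelihood test), each in that direction in 3 of 3 mice. These calls changed with single mice left out, and so did the share over all genes. The share of all genes with an adjusted p under 0.1 ran from 0.0901% (without *db/db*-dapa replicate 2) to 10.6% (without *db/db* replicate 3). The *db/db* mice are not part of this comparison and enter it through the joint fit. The Hacl1 call was lost without *db/db*-dapa replicate 2 or 3 or any 1 of the 3 *db/m* mice (adjusted p up to 0.176). The Agps call held only without *db/db* replicate 1 or 3 (0.114 to 0.403 otherwise), and that of Amacr only without 1 of the *db/db* mice (0.119 to 0.346 otherwise). The fold changes stayed within 2.03 to 2.64, -1.55 to -1.37 and -1.01 to -0.79.

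Of the 35 members, 20 were higher and 15 lower in *db/db*-dapa than in *db/m* mice, with a median log2 fold change of 0.14. The groups did not overlap for 12 members that were higher, beside 14.4% of all genes, and for 5 that were lower, beside 13.7%. The medians were 0.16 for peroxins, 0.15 for beta-oxidation enzymes and 0.19 for oxidases. Hao2 was at 1177, 1422 and 2829 CPM in *db/db*-dapa mice, all above the *db/m* mice (log2 fold change 1.44, standard error 0.41, adjusted p = 0.143, edgeR's quasi-likelihood test). Pex11a had a log2 fold change of 1.45 (standard error 0.53, adjusted p = 0.215, edgeR's quasi-likelihood test), without overlap. Both passed without *db/db* replicate 3 (adjusted p = 0.0231 and 0.0509, edgeR's quasi-likelihood test), where 10.6% of all genes did, and neither did with any other mouse left out. Acox2 was at 0.98 (standard error 0.54). At the low end, Acaa1a was at -0.60 (standard error 0.20, adjusted p = 0.201, edgeR's quasi-likelihood test), and below 0.1 without *db/db* replicate 3 (adjusted p = 0.0688). Pecr was at -0.50 (standard error 0.18), with *db/db*-dapa mice of 453, 450.6 and 452 CPM.

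Among 49 other peroxisomal genes, 47 were tested. In *db/db* against *db/m* mice, Nudt19, a peroxisomal CoA diphosphatase, and Mpv17l, a peroxisomal membrane protein, fell. The log2 fold change was -1.73 for Nudt19 (standard error 0.32, adjusted p = 0.0329) and -1.23 for Mpv17l (standard error 0.30, adjusted p = 0.0997, edgeR's quasi-likelihood test). Xdh, xanthine dehydrogenase, rose by 0.99 on the log2 scale (standard error 0.23, adjusted p = 0.0774, edgeR's quasi-likelihood test). In all, 22 were higher and 25 lower, with a median log2 fold change of -0.0050. Against *db/m*, the *db/db*-dapa mice had 28 higher and 19 lower, and Acot3, an acyl-CoA thioesterase, rose by 1.79 (standard error 0.37, adjusted p = 0.0672, edgeR's quasi-likelihood test). With dapagliflozin against vehicle 35 were higher and 12 lower, 1 with an unadjusted p under 0.05, and 0 passed (edgeR's quasi-likelihood test).

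PPAR-alpha is the nuclear receptor that drives many peroxisomal and mitochondrial fatty acid genes. Of 30 genes of its pathway outside the members, 29 were tested. In *db/db* against *db/m* mice 19 were higher and 10 lower. Txnip, a thioredoxin-binding protein induced by glucose, rose by 0.96 (standard error 0.19, adjusted p = 0.0460, edgeR's quasi-likelihood test). In *db/db*-dapa versus *db/m* mice 24 were higher and 5 lower, and Cyp4a14, a fatty acid omega-hydroxylase, rose (log2 fold change 3.39, standard error 0.77, adjusted p = 0.0924, edgeR's quasi-likelihood test). With dapagliflozin against vehicle 22 were higher and 7 lower, and 0 passed (edgeR's quasi-likelihood test), with an unadjusted p under 0.05 for 2 that were higher and 2 that were lower.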

How the data were processed

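RNA of sorted proximal tubular cells was sequenced as single-end reads of 101 bases on a HiSeq 2500 after a stranded mRNA preparation. Per the submitters' processing notes and the methods, reads were mapped to mm10 with TopHat2 2.0.13, Bowtie2 2.2.3 and SAMtools 0.1.19, and Cufflinks 2.2.1 was named for FPKM. The table the authors deposited holds estimated counts per gene, 1 column per mouse, although it is named for FPKM: 90.9% of its values are whole and column totals differ. How these counts were made is not given in the sources used here.

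Estimated counts were rounded and scaled by TMM. Genes at 0.3 CPM or more in at least 2 of 9 mice were tested (15583) with edgeR 4.0.16, all 9 mice in 1 quasi-likelihood fit, and adjusted by Benjamini-Hochberg over all genes. Calls used the study's thresholds, an adjusted p below 0.1 with a log2 fold change beyond 1 in size. SD describes CPM, and the standard error belongs to the fitted fold change. P-values of the main fit weigh a difference between group means against the spread between mice, estimated from all 9 mice. The members and lists were chosen with earlier results of these data known. Members called in any comparison, and the 4 highest and 4 lowest per comparison, are given with their test, and from the other lists the 3 genes of smallest p that passed, except 1 gene that is not reported here. Lengths came from GENCODE vM21 and upstream sequences from RefSeq. The tests were tried on simulated data. The alternatives were other scalings, DESeq2 1.42.0, limma 3.58.1, other filters, pseudocounts, lengths, a replicate block and each mouse left out. Same-numbered mice of different groups did not all deviate together (correlation -0.32 to 0.56, over 0.1 for 3 of 9 pairs). Numbers were therefore not taken as pairs in the main fit. Between vehicle and dapagliflozin, however, the correlation was 0.40 for replicate 1, -0.16 for replicate 2 and 0.56 for replicate 3. Unlike-numbered mice of those groups ran from -0.61 to 0.36. Replicates 1 and 3 were thus closest to their own number between the diabetic groups. For *db/db*-dapa replicate 1 the margin was small, with 0.40 for *db/db* replicate 1 and 0.36 for *db/db* replicate 2. Over all 3 groups, 0 mice were closest to their own number in both other groups. Deviations within a group of 3 are bound to each other, so these correlations are not independent. The cause was not tested.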

Additional observations from a re-analysis of the deposited data

How the results depend on the processing

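The calls of Agps, Amacr and Hacl1 in *db/db* against *db/m* mice held under all 10 alternatives other than leaving out a mouse (adjusted p 6.72e-08 to 0.0705). With a mouse left out, members called ran from 1 to 3 by both rules (1 without *db/db* replicate 2). For *db/db*-dapa versus *db/db* mice they ran from 0 to 1, and from 0 to 2 without the fold limit, and limma with weighted mice gave 2 and 4. For *db/db*-dapa versus *db/m* mice they ran from 0 to 4, and from 0 to 7 without the fold limit, the highest without *db/db* replicate 3, where 4.27% and 10.6% of all genes passed in place of 1.05% and 1.31%. There, limma with weighted mice gave 4 and 13 (10.4% and 31.3% of all genes, 1619 and 4884), the fit of only the 6 mice compared 4 and 11 (4.15% and 9.86%, 626 and 1486) and DESeq2 6 without the fold limit (6.39%, 996, and 507 with it), and Hao2 was among them in all 3. Of the peroxins, Pex11a passed with only 6 mice, and Pex11a, Pex5 and Pex7 with weighted mice (adjusted p = 0.0138, 0.0199 and 0.0853, limma). With weighted mice 262 genes were called in *db/db* against *db/m* and 449 in *db/db*-dapa versus *db/db* mice, and DESeq2 called 363 and 13.

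In *db/db* against *db/m* mice the median log2 fold change of beta-oxidation enzymes was -0.29 with weighted mice and -0.37 to 0.24 with a mouse left out, and that of oxidases was 0.073 to 0.29. The oxidase median of *db/db*-dapa versus *db/db* mice was 0.034 to 0.31. Pex16 ranged from -0.20 to 0.0097 there with a mouse left out, above 0 without *db/db* replicate 2. Scaling by library totals only moved the median of all genes in *db/db* against *db/m* mice from 0.02 to 0.13, and that of the members from -0.08 to 0.03. With a replicate block, 3, 0 and 2 members were called in the 3 comparisons, beside 1.19%, 0% and 1.07% of all genes. The call of Amacr in *db/db*-dapa versus *db/m* mice was lost with it (adjusted p = 0.109, edgeR, where the alternatives ranged from 0.000312 to 0.109). The cause of these changes was not tested. With 3 mice a group, precision was limited most for variable genes: the standard error of the log2 fold change of Pex11a and Acox2 was 0.53 and 0.54 in *db/db*-dapa versus *db/m* mice.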
